A study of Mus musculus with 26 samples.

Results

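The 33 genes described here encode the enzymes and structural proteins that make fatty acids, join them into triglyceride, load the triglyceride into very low density lipoprotein (VLDL) or lipid droplets, and break it down again. They were picked by gene symbol from the 22322 gene symbols in the RNA-seq tables, and each symbol was represented by its best expressed transcript. All 33 were found. They fall into 10 genes of fatty acid synthesis, 7 of fatty acid activation and esterification, 2 of VLDL assembly, 7 of the lipid droplet and 6 of lipolysis, with the nuclear receptor gene Pparg as the last member.

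In liver, citrate leaves the mitochondrion and is split into acetyl-CoA, which acetyl-CoA carboxylase and fatty acid synthase turn into fatty acids that desaturases then modify. Acyltransferases attach the fatty acids to a glycerol backbone, and the resulting triglyceride is exported on apolipoprotein B or held in droplets coated by perilipins, from which lipases release it. Expression of this pathway follows feeding and the circadian clock, in which the activator BMAL1 (gene Arntl) and the repressor REV-ERBα (gene Nr1d1) oppose each other.

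Livers of 8-week-old mice were sampled at circadian time 12 (CT12) and at CT0 (CT0 being lights-on), after 2 days in darkness. In the Bmal1 experiment, 12 livers were sequenced, 3 from mice labelled Bmal1 knockout (a liver-specific knockout) and 3 from C57BL/6 controls at each time. In the Nr1d1 experiment there were 8 livers, 2 from mice labelled Nr1d1 knockout and 2 from C57BL/6 controls at each time. Neither the Cre driver nor the deleted part of the genes is stated by the labels, so every group is named by its label. Values are RPKM, read density per length of transcript scaled to the mapped reads of the library, from 1 library per liver. Differences are on the log2(RPKM + 0.5) scale with a standard error (SE), which understates changes of low genes, and a gene is said to rise or fall only where limma's Benjamini-Hochberg adjusted p over all tested genes was under 0.05. A gene was tested where its mean was at least 0.5 RPKM over the experiment, which left 31 members in the Bmal1 experiment, without Mogat1 and Cidec, and all 33 in the Nr1d1 experiment.

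The transcripts of the targeted genes did not simply follow the labels. Arntl had 4.37, 3.59 and 4.01 RPKM in livers labelled Bmal1 knockout at CT12, against 1.26, 0.680 and 1.21 RPKM in controls. At CT0 it had 5.91, 5.73 and 7.45 RPKM in livers labelled Bmal1 knockout, against 16.3, 15.7 and 15.7 RPKM in controls. Nr1d1 was lower in the liver labelled Nr1d1 knockout than in the control of its replicate in only 1 of 4 pairs. The livers labelled Nr1d1 knockout held 11.1 and 28.4 RPKM at CT12, against 3.45 and 33.4 RPKM in controls, and 6.10 and 32.9 RPKM at CT0, against 0.374 and 21.97 RPKM in controls. A level summed over a whole transcript does not show whether a part of the gene is missing. In the Nr1d1 experiment the second replicate was labelled paired-end, and its levels stood far from those of the first, so that experiment is read within each replicate. Reads recovered from the RPKM steps were summed over the genes that resolved into whole reads. These sums were 3.94 to 6.53 M per library in the Bmal1 experiment and 9.93 to 36.2 M in the Nr1d1 experiment. They leave out genes that did not resolve, among them Scd1, Apob and Acly in both experiments. Each gene's reads are known only up to a factor shared by the libraries, so the sums are not sequencing depths. The protocols speak of pairs of mice, with each liver a library of its own. Replicate 1 of the livers labelled Bmal1 knockout at CT0 and replicate 2 of the livers labelled Nr1d1 knockout at CT12 stood apart in the lipogenic genes, and the results that rest on them are given accordingly.

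Markers of cell types moved with the genotype labels in part, with single genes carrying several of the sums. Of 7 hepatocyte markers at CT12, Alb alone was lower in every liver labelled Bmal1 knockout, at 14012 to 16366 RPKM against 26609 to 34269 RPKM in controls, Apoa1 was higher in every one, and 5 overlapped. The other 6 markers without Alb summed to 10526 to 11914 RPKM in livers labelled Bmal1 knockout and 9910 to 11191 RPKM in controls. At CT0 Alb and Hnf4a were lower in every liver labelled Bmal1 knockout, Cps1 was higher, and 4 overlapped. Of 5 cholangiocyte markers, Spp1, which other cells also express, had 87.0 to 121 RPKM in livers labelled Bmal1 knockout at CT12 and 26.5 to 47.7 RPKM in controls. Sox9 was also higher, under 1 RPKM, and Krt7, Krt19 and Epcam overlapped. At CT0 Spp1 was higher in every liver labelled Bmal1 knockout and the other 4 overlapped. Over 7 neutrophil markers the sums were 17.8 to 46.3 RPKM in livers labelled Bmal1 knockout at CT12 and 5.94 to 8.80 RPKM in controls, with 5 markers higher in every labelled knockout liver. Over 6 erythroid markers they were 246 to 307 RPKM in livers labelled Bmal1 knockout at CT12 and 107 to 190 RPKM in controls, again with 5 markers higher. Both sums overlapped at CT0. The neutrophil sums were then 104 to 219 RPKM in livers labelled Bmal1 knockout and 32.2 to 112 RPKM in controls, with 2 of 7 markers higher. The erythroid sums were 213 to 223 RPKM in livers labelled Bmal1 knockout and 160 to 380 RPKM in controls, with 0 of 6 markers higher and Alas2 lower. Stellate cell sums, 104 to 136 RPKM in livers labelled Bmal1 knockout at CT12 and 85.1 to 101 RPKM in controls, were apart through Dcn alone of 7 markers. At CT0 all 7 overlapped. All 6 endothelial markers overlapped at both times. Of 6 lymphocyte markers, Cd79a alone was higher at CT12, and all 6 overlapped at CT0. Over 7 adipocyte markers, adipose tissue being another source of triglyceride genes, the sums reached only 5.45 to 6.43 RPKM in livers labelled Bmal1 knockout at CT12 and 4.58 to 9.03 RPKM in controls, nearly all of it Fabp4. The other 6 adipocyte markers were at 0 in every labelled knockout liver at CT12, and 5 of the 7 were under 0.5 RPKM in every control. For these marker counts, the share of all genes tested that was higher or lower in every labelled knockout liver was not counted. The part of these cell types in the member levels was not tested, and in whole liver fewer cells of a type and less RNA per cell cannot be told apart.

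The stretches before the starts of the 5 genes that fell in livers labelled Bmal1 knockout at CT12, and of Plin2, which was lower at CT12 than at CT0 in controls, are shown because the results turn on these genes. Each is the 250 bases before the start, 5′ to 3′ on the gene's strand, from RefSeq on GRCm38.p6, a different build from the mm9 of the RPKM tables. Capitals mark matches on either strand to the E-box CACGTG, to the D-box TTATGNAA, to TAGGTCA (a site bound by REV-ERB and ROR receptors) or to the CCAAT box CCAAT, motifs that did not overlap each other in these 9 stretches. Mgll has 2 such windows and Pparg 3, all shown, and which of a gene's starts the RPKM values stand for is not given in the tables.
Fitm1, chr14:55575424-55575673, plus strand: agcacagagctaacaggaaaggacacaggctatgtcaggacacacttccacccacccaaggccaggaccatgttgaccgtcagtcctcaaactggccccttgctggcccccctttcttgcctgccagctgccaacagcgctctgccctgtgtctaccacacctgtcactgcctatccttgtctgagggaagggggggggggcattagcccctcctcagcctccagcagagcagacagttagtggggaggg
Fitm2, chr2:163472630-163472879, minus strand: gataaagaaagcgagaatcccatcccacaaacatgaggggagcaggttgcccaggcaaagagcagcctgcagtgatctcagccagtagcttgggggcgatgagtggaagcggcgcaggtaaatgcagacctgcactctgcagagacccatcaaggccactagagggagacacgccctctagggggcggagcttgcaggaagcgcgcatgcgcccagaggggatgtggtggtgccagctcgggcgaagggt
Fads2, chr19:10101504-10101753, minus strand: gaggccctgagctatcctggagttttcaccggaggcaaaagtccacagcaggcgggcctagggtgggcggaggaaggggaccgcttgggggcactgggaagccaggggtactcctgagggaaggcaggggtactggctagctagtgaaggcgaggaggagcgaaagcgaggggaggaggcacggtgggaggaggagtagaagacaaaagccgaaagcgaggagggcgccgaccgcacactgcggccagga
Mgll first window, chr6:88724162-88724411, plus strand: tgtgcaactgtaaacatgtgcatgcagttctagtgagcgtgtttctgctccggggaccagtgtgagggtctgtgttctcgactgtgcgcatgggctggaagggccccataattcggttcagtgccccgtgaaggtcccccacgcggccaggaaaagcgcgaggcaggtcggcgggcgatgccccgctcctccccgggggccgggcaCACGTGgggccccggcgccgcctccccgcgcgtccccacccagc
Mgll second window, chr6:88724454-88724703, plus strand: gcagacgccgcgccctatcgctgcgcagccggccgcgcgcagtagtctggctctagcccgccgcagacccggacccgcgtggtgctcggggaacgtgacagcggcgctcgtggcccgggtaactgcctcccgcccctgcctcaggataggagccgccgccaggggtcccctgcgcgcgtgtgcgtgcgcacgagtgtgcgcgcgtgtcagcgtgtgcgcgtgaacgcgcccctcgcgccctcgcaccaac
Pparg first window, chr6:115360894-115361143, plus strand: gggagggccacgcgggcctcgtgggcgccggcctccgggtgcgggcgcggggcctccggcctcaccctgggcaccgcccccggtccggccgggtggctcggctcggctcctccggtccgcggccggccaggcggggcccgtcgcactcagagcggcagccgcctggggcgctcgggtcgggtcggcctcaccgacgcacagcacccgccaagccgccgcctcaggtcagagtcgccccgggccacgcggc
Pparg second window, chr6:115362099-115362348, plus strand: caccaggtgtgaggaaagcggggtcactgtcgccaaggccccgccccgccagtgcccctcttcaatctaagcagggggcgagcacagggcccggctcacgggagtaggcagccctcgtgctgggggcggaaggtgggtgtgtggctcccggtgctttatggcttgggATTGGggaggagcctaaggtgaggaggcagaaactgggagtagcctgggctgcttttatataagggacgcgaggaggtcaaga
Pparg last window, chr6:115421816-115422065, plus strand: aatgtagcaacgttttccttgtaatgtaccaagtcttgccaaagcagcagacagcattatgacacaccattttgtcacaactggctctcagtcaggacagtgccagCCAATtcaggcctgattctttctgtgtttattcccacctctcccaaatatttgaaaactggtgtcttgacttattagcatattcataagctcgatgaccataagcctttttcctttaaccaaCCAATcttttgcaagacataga
Plin2, chr4:86670060-86670309, minus strand: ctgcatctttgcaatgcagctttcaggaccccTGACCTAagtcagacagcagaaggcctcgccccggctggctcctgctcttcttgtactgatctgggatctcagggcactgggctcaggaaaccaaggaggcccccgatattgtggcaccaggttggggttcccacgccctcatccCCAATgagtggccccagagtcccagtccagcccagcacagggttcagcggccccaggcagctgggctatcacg
The first Mgll window holds 1 E-box, 44 bases before its start, and the second none of the 4 motifs. The second Pparg window holds 1 CCAAT, the last one 2 and the first none of the 4. Plin2 holds 1 TAGGTCA, read on the opposite strand, 218 bases before its start, and 1 CCAAT. Fitm1, Fitm2 and Fads2 hold none of the 4 motifs in these windows. Promoter windows were found for 29 of the 33 members, 37 windows in all. The E-box lay in 3 of those 37 windows (8.11%), in Lipe, Mgll and Slc25a1, against 6.02% of 32851 promoter windows. TAGGTCA lay in 1 of the 37 (2.70%), against 2.23% of all windows, CCAAT in 13 (35.1%), against 33.9%, and the D-box in none, against 3.07%. Matches are a description of these letters only.

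At CT12, 5 of the 31 tested members fell in livers labelled Bmal1 knockout and none rose. Over all 11439 genes tested, 3.22% fell and 6.46% rose in that comparison. The direction of that background rests on the scaling: 739 genes rose and 368 fell on the deposited scale, against 478 and 555 with median-of-ratios scaling, under which 7 members fell and none rose. The 5 were Fitm1 and Fitm2 of the lipid droplet, the fatty acid desaturase Fads2, the monoglyceride lipase Mgll and Pparg. The median difference of the members was −0.34 on the log2 scale, beside 0.09 over all genes tested. By role, the median was −0.69 for synthesis, −0.04 for activation and esterification, −0.06 for VLDL assembly, −0.21 for the droplet and −0.53 for lipolysis. The lipolysis genes include G0s2, which encodes a lipase inhibitor, so that median does not stand for lipase genes alone. Another 26 members did not pass the test, 7 of them with an unadjusted p under 0.05, out of 12 members below that p in all, beside 24.02% of all genes tested below it.

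**Figure D1:**
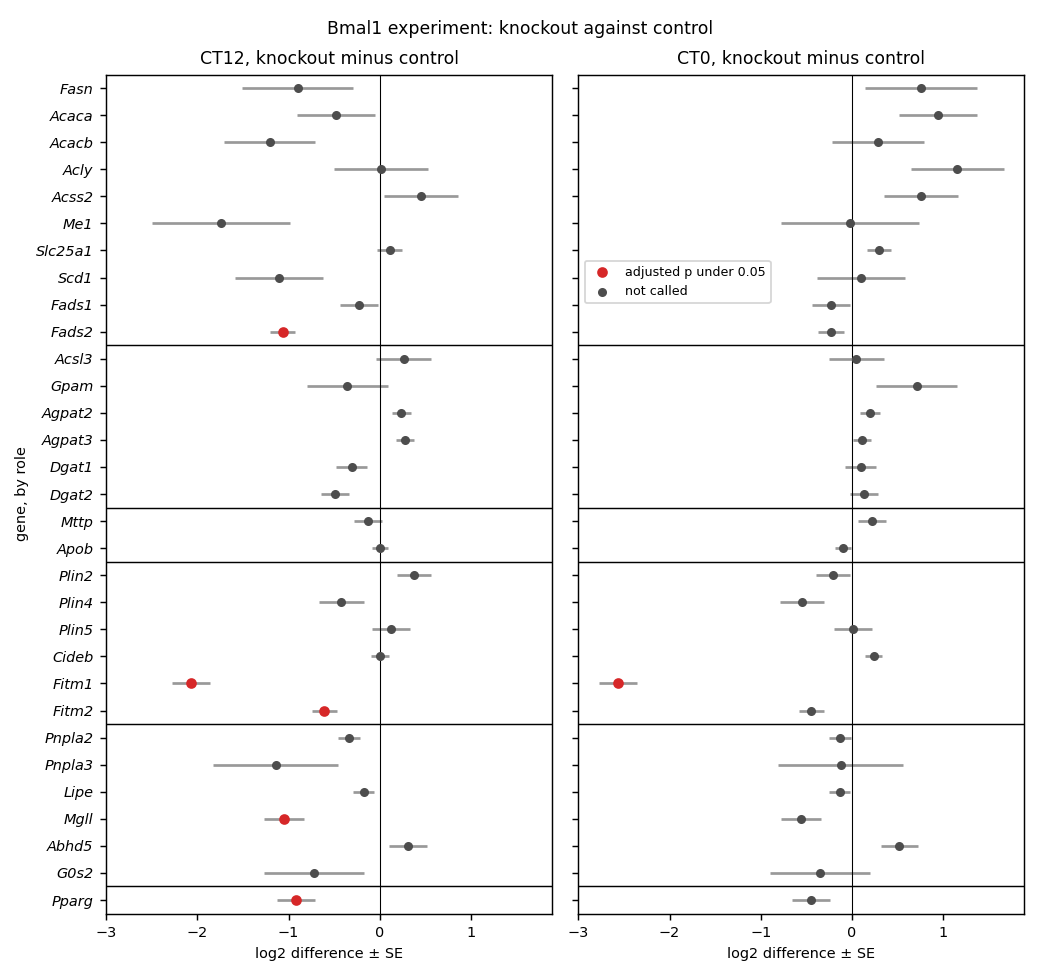
Difference between livers labelled Bmal1 knockout and controls for the 31 tested members at CT12 (left) and CT0 (right), in log2(RPKM + 0.5) with SE bars from limma (3 livers per group), ordered by role. Red points passed the adjusted p of 0.05: Fads2, Fitm1, Fitm2, Mgll and Pparg at CT12, and Fitm1 at CT0.

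Among the lipid droplet genes, Fitm1 had the largest difference from controls of the 31 tested members at both times. The FIT proteins sit in the endoplasmic reticulum and bind triglyceride as droplets form. Fitm1 had 1.79, 0.779 and 2.04 RPKM in livers labelled Bmal1 knockout at CT12, against 8.38, 6.96 and 7.85 RPKM in controls. At CT0 it had 0.831, 0.725 and 0.990 RPKM in livers labelled Bmal1 knockout, against 7.65, 7.76 and 7.02 RPKM in controls. The groups did not overlap at either time, and every labelled knockout library lay under every control library of the experiment. The log2 difference was −2.07 ± 0.21 (SE, n = 3 per group, limma adjusted p = 7.42e-05) at CT12 and −2.57 ± 0.21 (limma adjusted p = 7.61e-05) at CT0.

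Fitm2, the more widely expressed relative of Fitm1, fell at CT12 as well. It had 6.73, 7.25 and 7.66 RPKM in livers labelled Bmal1 knockout at CT12, against 12.1, 9.37 and 12.6 RPKM in controls, with no overlap. The log2 difference was −0.61 ± 0.14 (limma adjusted p = 0.0158), and leaving out any of 3 libraries, replicate 1 of the livers labelled Bmal1 knockout at CT12 or replicate 1 or 3 of the controls at CT12, moved the adjusted p to between 0.0546 and 0.0713. At CT0 Fitm2 had 5.70, 5.26 and 4.44 RPKM in livers labelled Bmal1 knockout and 7.39, 8.02 and 6.12 RPKM in controls, a log2 difference of −0.44 ± 0.14 that did not pass (limma adjusted p = 0.157).

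The coat proteins of the droplet did not pass the test between genotypes. Plin2, the main perilipin of hepatocytes, averaged 157 ± 44.9 RPKM in livers labelled Bmal1 knockout at CT12 and 119 ± 24.8 RPKM in controls (SD, n = 3 each), a log2 difference of 0.38 ± 0.19 (limma adjusted p = 0.246). Without replicate 1 of the livers labelled Bmal1 knockout at CT12, that difference was 0.62 and passed (limma adjusted p = 0.0264). Plin4 differed by −0.42 ± 0.25 at CT12 and −0.55 ± 0.25 at CT0. Plin5, which ties droplets to mitochondria, and Cideb, which enlarges droplets and VLDL particles, differed by 0.13 ± 0.21 and 0.01 ± 0.10 on the log2 scale at CT12. Cidec, the droplet fusion protein typical of fat cells, was near the lower end of measurement, at most 0.466 RPKM in livers labelled Bmal1 knockout at CT12 and at most 0.570 RPKM in controls, and was not tested.

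Among the lipolysis genes, Mgll, whose product cleaves monoglyceride in the last step of triglyceride breakdown, fell at CT12. It had 22.1, 25.3 and 35.0 RPKM in livers labelled Bmal1 knockout, against 45.3, 52.4 and 75.6 RPKM in controls. The groups did not overlap, and the log2 difference was −1.05 ± 0.22 (limma adjusted p = 0.0102). At CT0 it had 34.5, 24.9 and 20.5 RPKM in livers labelled Bmal1 knockout and 39.9, 38.0 and 37.6 RPKM in controls. The difference of −0.55 ± 0.22 did not pass (limma adjusted p = 0.276).

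Pnpla2, encoding the lipase that takes the first fatty acid off triglyceride, had 15.2, 17.4 and 14.9 RPKM in livers labelled Bmal1 knockout at CT12, against 20.1, 19.3 and 21.0 RPKM in controls. Its difference of −0.34 ± 0.12 did not pass (limma adjusted p = 0.115) in the deposited scale, and with median-of-ratios scaling it was −0.44 and passed (limma adjusted p = 0.0454). The activator of that lipase, Abhd5, and its inhibitor, G0s2, differed by 0.31 ± 0.21 and −0.72 ± 0.55 at CT12. Pnpla3, which remodels droplet triglyceride, had at most 0.105 RPKM in livers labelled Bmal1 knockout at CT12 and 0.214, 2.77 and 0.353 RPKM in controls, a difference of −1.14 ± 0.69 (limma adjusted p = 0.347). Hormone-sensitive lipase, encoded by Lipe, was low throughout, between 2.73 and 5.11 RPKM over the 12 livers.

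Pparg, the nuclear receptor that drives storage of fat, fell at CT12 too. It had 1.92, 3.54 and 1.70 RPKM in livers labelled Bmal1 knockout and 5.75, 3.93 and 4.72 RPKM in controls. The highest labelled knockout library stood close under the lowest control, and the log2 difference was −0.92 ± 0.21 (limma adjusted p = 0.0153). Leaving out replicate 1 or 3 of the livers labelled Bmal1 knockout at CT12, or replicate 1 of the controls at CT12, moved the adjusted p to between 0.0559 and 0.0607. At CT0 the values were 2.81, 2.38 and 2.81 RPKM in livers labelled Bmal1 knockout and 3.50, 4.01 and 3.95 RPKM in controls, a difference of −0.45 ± 0.21 (limma adjusted p = 0.368).

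**Figure D2:**
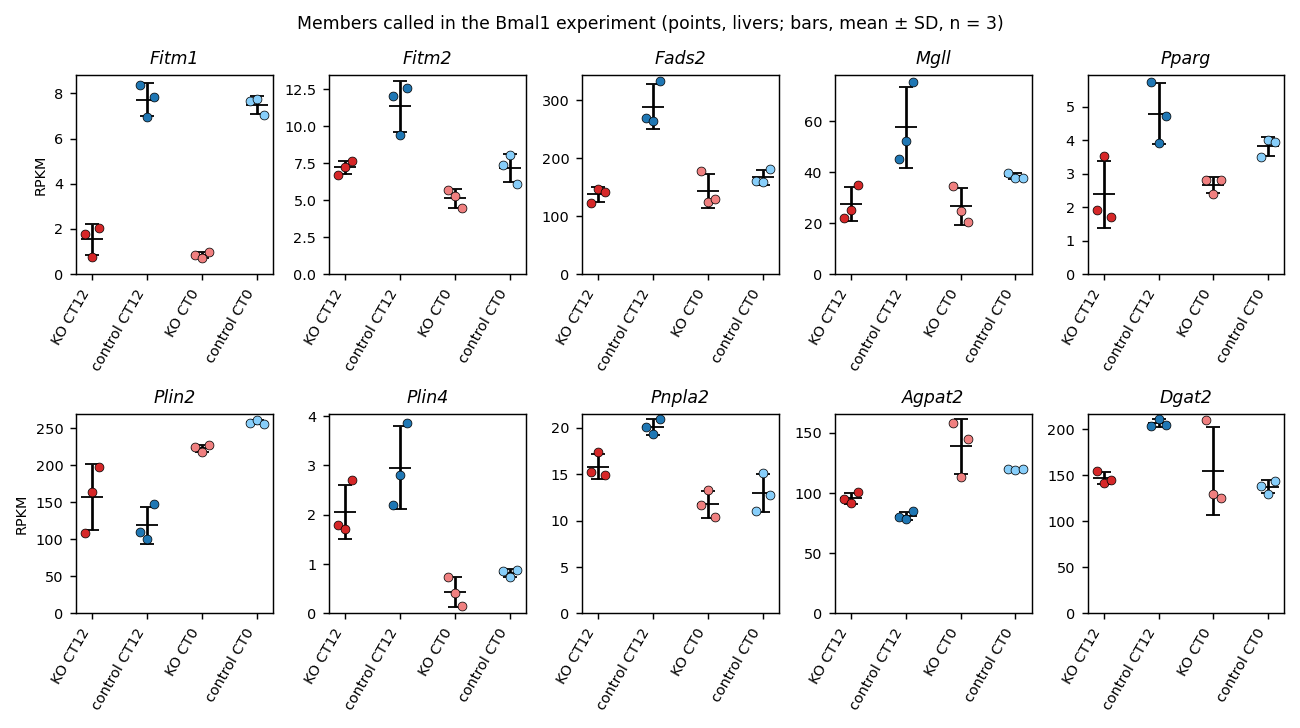
RPKM in each of the 12 livers of the Bmal1 experiment for the 10 members that passed a test in at least 1 comparison of that experiment, with group means and SD (n = 3). Fitm1 lies at 0.725 to 2.04 RPKM in all 6 livers labelled Bmal1 knockout and at 6.96 to 8.38 RPKM in all 6 controls, while Plin2 and Agpat2 are lower at CT12 than at CT0 in controls.

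In fatty acid synthesis, Fads2, the delta-6 desaturase of polyunsaturated fatty acid synthesis, was the only one of 10 members that passed at CT12. It had 123, 147.6 and 142 RPKM in livers labelled Bmal1 knockout, against 270.3, 264 and 334 RPKM in controls. The groups did not overlap, and the log2 difference was −1.07 ± 0.14 (limma adjusted p = 0.000496). At CT0 it had 178, 124 and 130.4 RPKM in livers labelled Bmal1 knockout and 160.7, 159.7 and 182 RPKM in controls, overlapping, with a difference of −0.23 ± 0.14 (limma adjusted p = 0.522). The neighbouring delta-5 desaturase Fads1 differed by −0.23 ± 0.21 at CT12 and −0.23 ± 0.21 at CT0.

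The other 9 synthesis members had differences of −1.75 (Me1, malic enzyme, a source of NADPH) to 0.45 (Acss2, acetyl-CoA synthetase) at CT12, none of which passed. Me1 had 7.96, 8.21 and 11.7 RPKM in livers labelled Bmal1 knockout, against 31.6, 44.6 and 22.9 RPKM in controls, and Scd1, the stearoyl-CoA desaturase, had 656, 275 and 654 RPKM in livers labelled Bmal1 knockout, against 979, 1101 and 1089 RPKM in controls. Acacb, the acetyl-CoA carboxylase at the mitochondrion, had 6.17, 3.59 and 4.31 RPKM in livers labelled Bmal1 knockout and 10.0, 18.3 and 7.65 RPKM in controls. In all 3 genes every labelled knockout library lay under every control, and the limma adjusted p was 0.183 for Me1, 0.185 for Scd1 and 0.164 for Acacb. Here and wherever groups are said not to overlap, the share of all genes tested with such a separation was not counted. Fasn differed by −0.90 ± 0.61, Acaca, the cytosolic acetyl-CoA carboxylase, by −0.48 ± 0.43, Acly by 0.01 ± 0.51 and Slc25a1, the citrate carrier, by 0.11 ± 0.13. Me1, Scd1 and Acacb are named because of the library described next, after their values were seen.

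One library stood apart in these genes. Replicate 1 of the livers labelled Bmal1 knockout at CT0 was the highest of the 12 libraries in 8 of the 10 synthesis members and in 15 of the 31 tested members, while it was highest in 16.8% of all genes tested. Fasn, fatty acid synthase, had 536 RPKM there, against 89.0 and 100.0 RPKM in the other livers labelled Bmal1 knockout at CT0 and 96.0, 81.8 and 125 RPKM in controls. Acly, the citrate-splitting enzyme, had 1059 RPKM there, against 177 and 220.1 RPKM in the other livers of its group and 149, 138 and 181 RPKM in controls. That library's Gpam level, for the acyltransferase that starts glycerolipid synthesis, was 377 RPKM, or 3.93 times the highest of the other 11, and its Me1 level of 139 RPKM was 3.13 times the highest of the other 11. Elongase Elovl6, at 3.58 times, and the lipogenic protein gene Thrsp, at 1.81 times, were also highest there. Srebf1, encoding a main transcription factor of lipogenesis, was not, at 103.6 RPKM there and 105.6 RPKM in the highest of the others, while Mlxipl, encoding the other main one, ChREBP, was, at 83.7 RPKM or 1.29 times the highest of the other 11. The 7 adipocyte markers summed to 21.6 RPKM in that library and to at most 11.3 RPKM in the other 11, through Fabp4 at 16.5 RPKM and Slc2a4 at 5.03 RPKM, with the other 5, Adipoq, Lep, Retn, Cfd and Plin1, at 0.

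**Figure D3:**
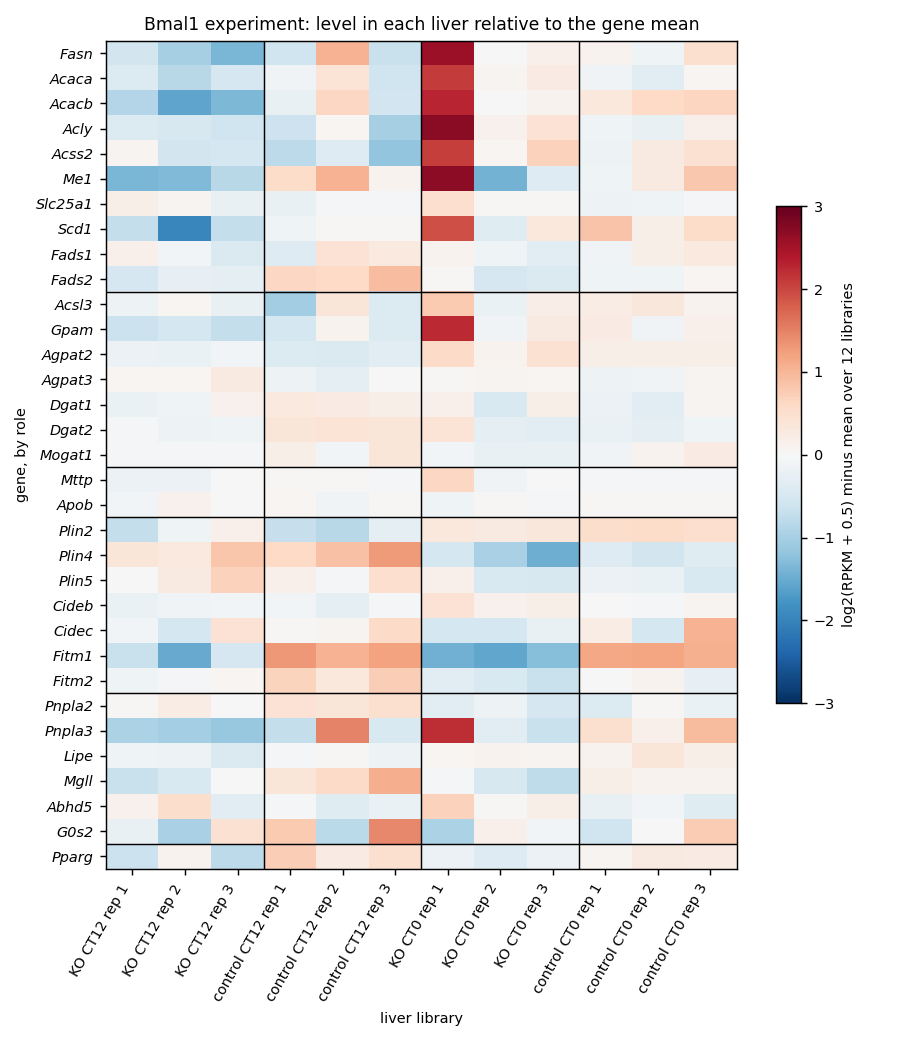
Level of each of the 33 members in the 12 livers of the Bmal1 experiment, as log2(RPKM + 0.5) minus the gene's mean over the 12 libraries, with genes down the page by role and black lines between groups and roles. The column of replicate 1 of the livers labelled Bmal1 knockout (KO) at CT0 is highest in 8 of 10 synthesis members, and the Fitm1 row is low in all 6 KO columns.

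The group means at CT12 do not depend on that CT0 library, but the spread that limma pools over the 4 groups does. Without it, 9 members fell at CT12 in place of 5, against 3.71% of all genes that fell and 7.13% that rose in the same fit. Acacb (−1.21, limma adjusted p = 0.0150), Me1 (−1.75, 0.00490), Scd1 (−1.10, 0.0440) and Dgat2 (−0.49, 0.00118) were added to the 5. Without replicate 1 of the controls at CT12, 3 members passed, with Fitm2 and Pparg lost.

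In activation and esterification no member passed between genotypes at either time. Dgat2, which makes most of the triglyceride from newly made fatty acids, had 155, 141 and 145 RPKM in livers labelled Bmal1 knockout at CT12, against 204, 211 and 205 RPKM in controls. Its difference of −0.49 ± 0.16 had a limma adjusted p of 0.0718, or 0.0272 with median-of-ratios scaling. The acyl-CoA synthetase gene Acsl3 differed by 0.26 ± 0.30 and Gpam by −0.36 ± 0.45 at CT12. Dgat1, the other diglyceride acyltransferase, differed by −0.31 ± 0.17, and the lysophosphatidate acyltransferases Agpat2 and Agpat3 by 0.24 ± 0.11 and 0.28 ± 0.10 at CT12. Mogat1, a monoacylglycerol acyltransferase, reached at most 0.253 RPKM in this experiment and was not tested.

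Neither VLDL member passed between genotypes. Apob, the backbone of the particle, averaged 1517 ± 113 RPKM in livers labelled Bmal1 knockout at CT12 and 1509 ± 92.0 RPKM in controls (SD, n = 3 each), a log2 difference of 0.01 ± 0.09. Mttp, the transfer protein that loads it, differed by −0.13 ± 0.15 at CT12 and 0.22 ± 0.15 at CT0.

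At CT0 Fitm1 alone of the 31 members fell in livers labelled Bmal1 knockout and none rose, beside 0.708% of all genes tested that fell and 0.909% that rose. The median difference of the members was 0.05, beside 0.01 over all genes. The interaction, which sets the genotype difference at CT12 against that at CT0, passed for none of the 31 members and for 1.31% of all genes tested, with 4 members at an unadjusted p under 0.05, beside 11.9% of all genes. For Fads2 the interaction was −0.84 ± 0.20 (limma adjusted p = 0.0752), and −0.93 with median-of-ratios scaling (limma adjusted p = 0.0423). Fitm2, Mgll and Pparg, called at CT12 and not at CT0, are not shown by this test to differ between the times.

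Between the times, 7 members passed in the controls, 5 higher and 2 lower at CT12 than at CT0, beside 3.4% of all genes that were higher and 7.43% that were lower. With median-of-ratios scaling 700 genes were higher and 578 lower, against 389 and 850 on the deposited scale, with the members still 5 and 2. Fads2 was higher at CT12 by 0.78 ± 0.14 (limma adjusted p = 0.00489), Dgat2 by 0.59 ± 0.16 (0.0331), Fitm2 by 0.62 ± 0.14 (0.0153), Pnpla2 by 0.62 ± 0.12 (0.00804) and Plin4 by 1.36 ± 0.25 (0.00502). Plin4, a perilipin of nascent droplets, had 2.20, 2.82 and 3.86 RPKM in controls at CT12, against 0.864, 0.731 and 0.884 RPKM in controls at CT0. Plin2 ran the other way, at 110.2, 100.1 and 147 RPKM in controls at CT12, against 258, 261 and 256 RPKM in controls at CT0, a difference of −1.13 ± 0.19 (limma adjusted p = 0.00278). Agpat2 was lower at CT12 too, with a log2 difference of −0.56 ± 0.11 (limma adjusted p = 0.00655). The Dgat2 call was lost when any 1 of the 6 control libraries was left out (limma adjusted p from 0.0705 to 0.105) and without the RPKM filter (0.0565). The Fitm2 call was lost without replicate 1 or 3 of the controls at CT12 or replicate 3 of the controls at CT0 (limma adjusted p from 0.0581 to 0.0657). These comparisons use the same control livers as the genotype comparison at CT12, so Fads2 and Fitm2 are not called there independently.

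In livers labelled Bmal1 knockout, 1 member was higher and 1 lower at CT12 than at CT0, beside 0.909% of all genes that were higher and 0.988% that were lower. Plin4 was higher, with 1.80, 1.71 and 2.70 RPKM at CT12 and 0.746, 0.415 and 0.152 RPKM at CT0, a difference of 1.48 ± 0.25 (limma adjusted p = 0.0141). Agpat2 was lower, with 94.9, 91.9 and 100.9 RPKM at CT12 and 158, 114 and 145 RPKM at CT0, a difference of −0.52 ± 0.11 (limma adjusted p = 0.0330). The Plin4 call was lost without replicate 3 at CT0 (limma adjusted p = 0.0525). The Agpat2 call was lost without any 1 of 6 libraries, namely replicates 1 to 3 of these livers at CT12, replicates 1 and 3 at CT0 and replicate 2 of the controls at CT0 (limma adjusted p from 0.0519 to 0.111). Plin2 had 109, 164 and 198 RPKM at CT12 and 225, 218 and 227 RPKM at CT0 in these livers, and its difference of −0.55 ± 0.19 did not pass (limma adjusted p = 0.142). Its genotype by time interaction was 0.59 ± 0.26 (limma adjusted p = 0.410). The synthesis members were lower at CT12 by a median of −1.43 on the log2 scale in these livers, where the high replicate 1 at CT0 enters the mean, and none of the 10 passed. The count of members called in livers labelled Bmal1 knockout ranged from 0, without replicate 3 at CT0, to 6, without replicate 2 at CT0, which added Acacb, Acss2, Gpam and Scd1.

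Other genes of the same pathway, 61 of 63 listed and not members, give the surroundings. Their counts at CT12 stand beside 6.46% of all genes tested that rose and 3.22% that fell in livers labelled Bmal1 knockout. At CT12, 1 of 16 other synthesis genes rose and 1 fell, and 3 of 10 tested esterification genes fell. Of 7 VLDL genes 1 rose and 1 fell, and of 8 tested droplet genes 1 rose and 1 fell. Of 7 lipase genes 2 rose and 1 fell, and of 9 regulators of lipogenesis 1 rose and 2 fell. The largest differences were those of Lpl, lipoprotein lipase, at 4.05 ± 0.33 (limma adjusted p = 1.58e-05), and Insig2, which retains SREBP in the endoplasmic reticulum, at 3.32 ± 0.25. Ces1d, a carboxylesterase that hydrolyses stored triglyceride, fell by 2.75 ± 0.17 and Thrsp fell by 2.53 ± 0.68 on the log2 scale. Lpl had 59.5, 53.9 and 51.2 RPKM in livers labelled Bmal1 knockout at CT12, against 3.59, 2.75 and 2.32 RPKM in controls, and 24.7, 84.7 and 45.4 RPKM at CT0, against 5.40, 8.46 and 7.16 RPKM in controls. Macrophages also express Lpl, and 8 markers of Kupffer cells and macrophages summed to 108.7 to 179 RPKM in livers labelled Bmal1 knockout at CT12 and 98.0 to 146 RPKM in controls; their part in Lpl was not tested. At CT0, 1 of 16 other synthesis genes rose, 2 of 10 esterification genes fell and 2 of 7 lipase genes rose and 1 fell. None of the other VLDL, droplet or regulator genes passed. Over all genes tested, 0.909% rose and 0.708% fell at CT0. Lpl differed by 2.64, Ces1d by −1.94, the glycerol-phosphate acyltransferase gene Agpat9 by −1.38 and Scd2, a second stearoyl-CoA desaturase, by 1.35 on the log2 scale at CT0.

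In the Nr1d1 experiment no member passed in any of the 5 comparisons. Of 12738 genes tested, 0.0314% rose and 0.00785% fell in livers labelled Nr1d1 knockout at CT12, and 0% rose and 0% fell at CT0. Between the times, 0.055% of genes were higher and 0% lower at CT12 in livers labelled Nr1d1 knockout, 0.173% were higher and 0.181% lower in controls, and 0% passed for the interaction. Members with an unadjusted p under 0.05 numbered 5 at CT12 and 1 at CT0 between genotypes, 8 in livers labelled Nr1d1 knockout and 8 in controls between the times, and 4 for the interaction. Over all genes tested, the shares below that p were 4.55% and 4.51% between genotypes, 14.4% and 8.09% between the times and 4.22% for the interaction, in the same order. With 2 livers per group in 2 replicates that differ in library type, even large differences, such as one of 1.93 on the log2 scale for Scd1, did not pass, and the values are given within each replicate.

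**Figure D4:**
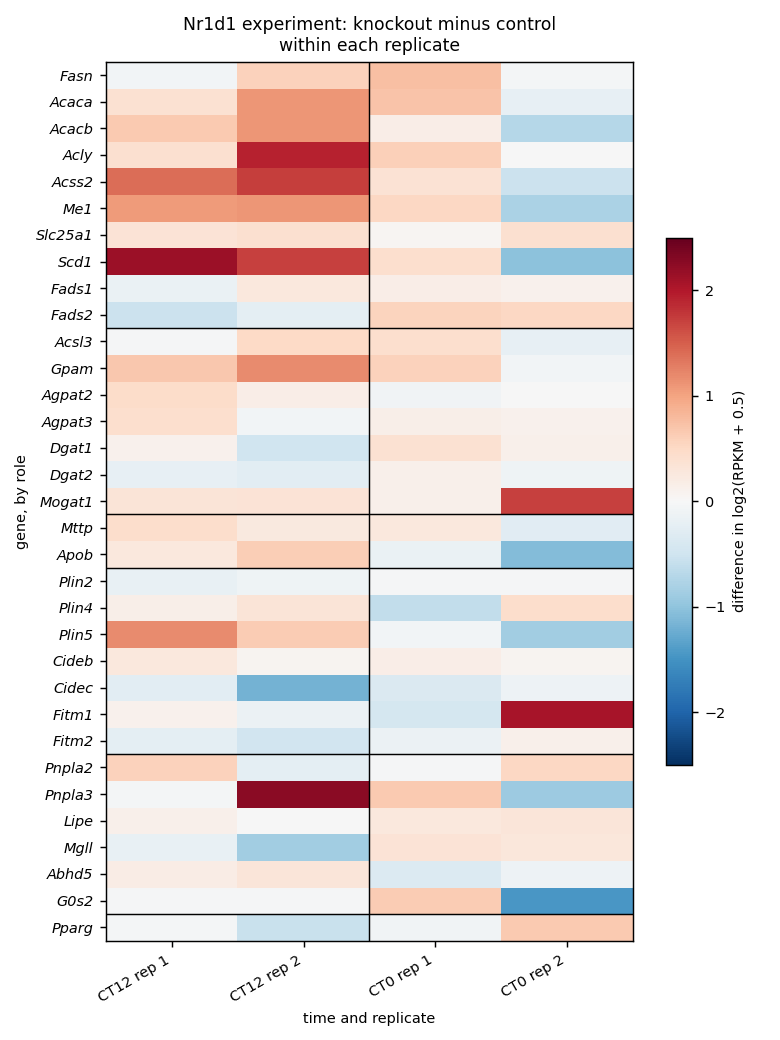
Difference between the liver labelled Nr1d1 knockout and the control of the same replicate for each of the 33 members, in log2(RPKM + 0.5), at CT12 (left pair of columns) and CT0 (right pair), genes ordered by role. Scd1, Acss2 and Me1 are above 1 in both replicates at CT12, while at CT0 all 10 synthesis genes are above 0 in replicate 1 and 3 of the 10 in replicate 2.

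At CT12, 7 of the 10 synthesis members were higher in the liver labelled Nr1d1 knockout in both replicates, 1 was lower in both and 2 were split, while 31.0% of all genes tested were higher in both and 23.5% lower in both. Scd1 had 3069 RPKM in the liver labelled Nr1d1 knockout, against 693 RPKM in the control of replicate 1, and 9062 RPKM in the liver labelled Nr1d1 knockout of replicate 2, against 2761 RPKM in its control. Acss2 had 310.1 RPKM in the liver labelled Nr1d1 knockout of replicate 1, against 117 RPKM in its control, and 2366 RPKM in that of replicate 2, against 712 RPKM in its control. Me1 had 103 RPKM in the liver labelled Nr1d1 knockout and 48.8 RPKM in the control of replicate 1, and 753 RPKM in the liver labelled Nr1d1 knockout and 352 RPKM in the control of replicate 2. The joint differences were 1.93 ± 0.83 for Scd1, 1.57 ± 0.48 for Acss2 and 1.08 ± 0.49 for Me1, with limma adjusted p from 0.824 to 1.00.

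The replicates did not weigh equally in this pattern. Replicate 2 of the livers labelled Nr1d1 knockout at CT12 was the highest of the 4 livers of its replicate in 9 of the 10 synthesis members, while it was highest in 27.3% of all genes tested. Replicate 1 of that group was the highest of its 4 in 6 of the 10, beside 38.6% of all genes. Acly differed by 1.92 within replicate 2 and by 0.39 within replicate 1, Fasn by 0.58 and −0.07, and Pnpla3 by 2.26 and −0.06. At CT0 all 10 synthesis members were higher in the liver labelled Nr1d1 knockout of replicate 1, by 0.04 to 0.76 on the log2 scale, beside 34.2% of all genes tested, and in replicate 2 the count was 3 of 10, beside 49.2%. Thus 3 of the 10 were higher in both replicates, none was lower in both and 7 were split, beside 17.8% of all genes higher in both and 33.2% lower in both.

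**Figure D5:**
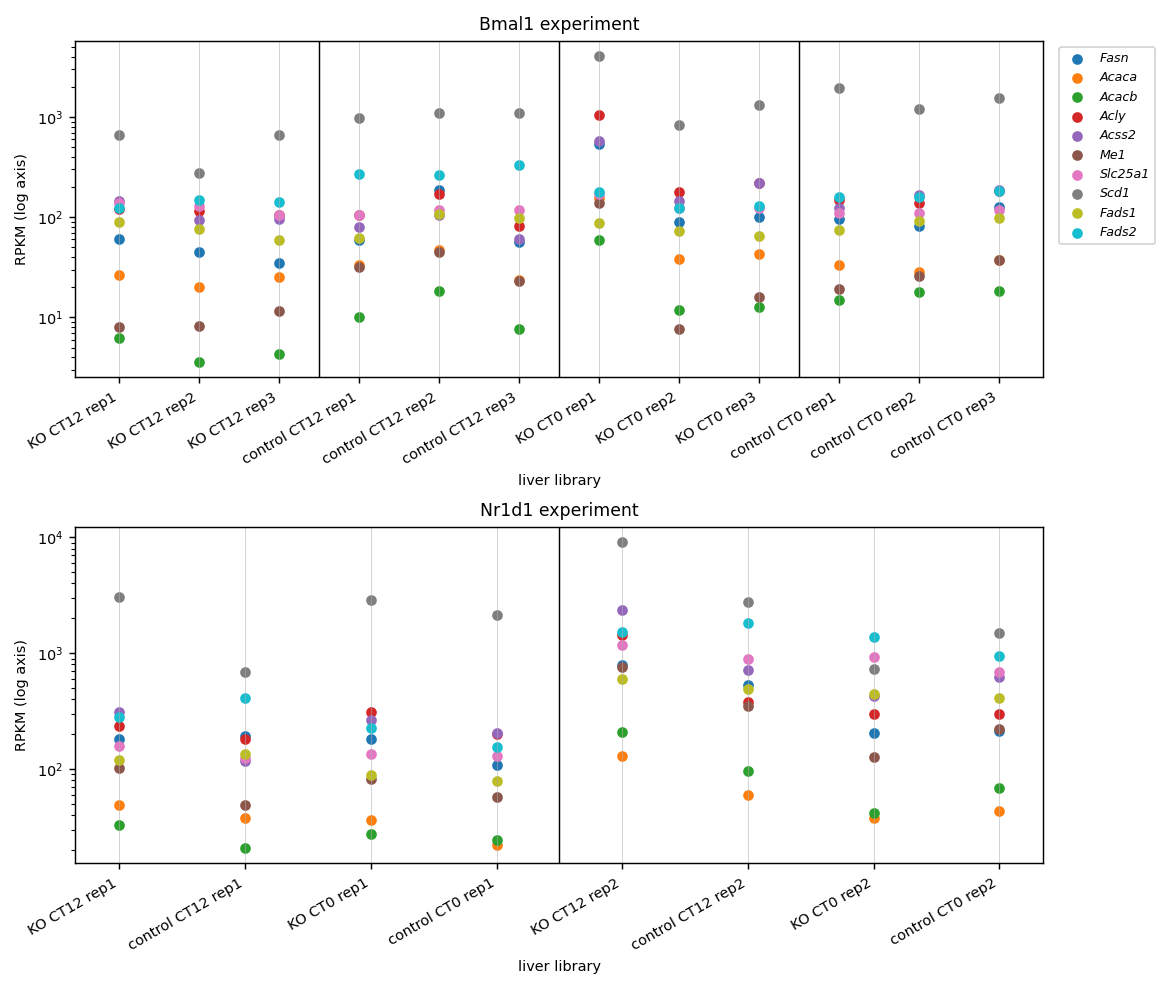
RPKM on a log axis of the 10 synthesis members in each liver of the Bmal1 experiment (top) and the Nr1d1 experiment (bottom, replicate 1 left of the line, replicate 2 right), with livers labelled knockout as KO. Replicate 1 of KO at CT0 is the highest of the 12 for 8 of the 10 genes in the Bmal1 experiment, not for Fads1 and Fads2, and KO at CT12 is the highest of the 4 livers of replicate 2 for 9 of the 10 in the Nr1d1 experiment, not for Fads2.

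Outside synthesis, Plin5 had 27.7 RPKM in the liver labelled Nr1d1 knockout at CT12, against 11.9 RPKM in the control of replicate 1, and 70.4 RPKM in that of replicate 2, against 45.3 RPKM in its control. At CT0 it had 16.3 RPKM in the liver labelled Nr1d1 knockout of replicate 1, against 17.1 RPKM in its control, and 44.8 RPKM in that of replicate 2, against 81.8 RPKM in its control. The genotype difference of Plin5 was 0.91 ± 0.25 at CT12 (limma adjusted p = 0.717) and −0.47 ± 0.25 at CT0 (limma adjusted p = 0.873). Of the 7 droplet members, 3 were higher and 3 lower in both replicates at CT12, and of the 7 esterification members 3 were higher and 1 lower. Plin2, the member with the lowest p between the times in the controls of the Bmal1 experiment, was lower at CT12 than at CT0 in both replicates and both genotypes here. The log2 differences were −0.53 and −0.61 in livers labelled Nr1d1 knockout and −0.38 and −0.53 in controls, and did not pass (limma adjusted p = 0.285 in livers labelled Nr1d1 knockout and 0.556 in controls).

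The genes that fell in livers labelled Bmal1 knockout at CT12 gave no called difference in livers labelled Nr1d1 knockout. Fitm1 had 6.57 RPKM in the liver labelled Nr1d1 knockout at CT12, against 6.08 RPKM in the control of replicate 1, and 12.5 RPKM in the liver labelled Nr1d1 knockout of replicate 2, against 13.8 RPKM in its control. At CT0 its replicates went opposite ways, with 10.9 RPKM in the liver labelled Nr1d1 knockout and 15.0 RPKM in the control of replicate 1, and 25.3 RPKM in the liver labelled Nr1d1 knockout and 5.67 RPKM in the control of replicate 2. Fads2 and Mgll were lower in both replicates at CT12, with log2 differences of −0.40 ± 0.20 and −0.52 ± 0.28 in the joint fit, and higher in both at CT0. Pparg differed by −0.30 ± 0.30 and Fitm2 by −0.36 ± 0.21 at CT12. Of the other pathway genes, Lpl alone passed between genotypes, at 11.2 RPKM in the liver labelled Nr1d1 knockout at CT12, against 1.73 RPKM in the control of replicate 1, and 23.6 RPKM in that of replicate 2, against 5.25 RPKM in its control, a difference of 2.23 ± 0.23 (limma adjusted p = 0.0395). That call rests on the RPKM filter, the replicate block and the single transcript, since no gene at all passed at CT12 with any 1 of the 3 changed. It was also not kept under every omission of 1 library, each of which leaves a single liver in a group. Whether the Bmal1 and Nr1d1 experiments differ in a member was not tested.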

How the data were processed

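Total liver RNA was sequenced with the TruSeq RNA kit v2, per the labels' protocols. The authors deposited 1 table of RPKM values per liver, on mm9; TopHat2, Bowtie and bedtools 2.19.1 are named in the submitters' processing notes, with no role given. Counting strand is not given in the sources used here, so overlapping genes cannot be told apart. The 4C tables were not used here. Of 46588 transcripts, 46585 were in every library, and the best expressed transcript stood for each symbol. Reads recovered from the RPKM steps resolved 99.0% (Bmal1) and 91.8% (Nr1d1) of expressed genes within a tolerance of 0.05; no count test was run, since RPKM gives counts only up to a factor.

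Tests used limma 3.58.1 in R 4.3.3 on log2(RPKM + 0.5) with a mean-variance trend, keeping genes that averaged at least 0.5 RPKM, over 4 group means per experiment. The Nr1d1 fit held the replicate as a block, because replicate 2 alone was labelled paired-end and same-numbered libraries deviated together (r from 0.82 to 0.88 over 12 pairs). With 2 libraries per group, deviations from the group mean in replicate 2 mirror those in replicate 1. Each correlation among the 12 pairs therefore appears once for each replicate. In the Bmal1 experiment same-numbered libraries did not (r from −0.06 to 0.12 over 18 pairs), so no block was used. The fit was tested on simulated data. The pseudocount, filter, scaling, transcript summary, block and each library were varied.

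Library values are printed for members that passed a genotype or interaction test; other members are given by range or where their role or a library that stood apart called for them, chosen after their values were seen. The members, gene lists and marker lists were chosen with earlier results of these data known. Python 3.11.15, pandas 2.3.3 and matplotlib 3.10.9 were used.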

Additional observations from a re-analysis of the deposited data

Results flagged for a closer look

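In 6 members of the Nr1d1 experiment, both replicates moved one way between genotypes at CT12 and the opposite way at CT0. That is 18.2% of the 33, beside 13.7% of the 12738 genes tested. The interaction log2 difference (genotype difference at CT12 minus that at CT0) was 1.37 for Plin5, 1.05 for Apob, 0.48 for Abhd5 and 0.37 for Agpat2, which were higher in livers labelled Nr1d1 knockout at CT12, and −0.94 for Fads2 and −0.84 for Mgll, which were lower there. None of the 6 passed the interaction test (limma adjusted p from 0.931 to 0.964), and each direction rests on 2 livers per group.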

How the results depend on the processing

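Member values were recomputed only where the member passed in the main fit or under at least 1 planned setting. None of these reversed its direction with the difference passing in either fit. Changes of direction among values that did not pass were not counted. Of 522 recomputed member values, 484 kept their side of the threshold, 15 newly passed and 23 no longer passed. The member counts kept within 1.5 times the main count in 151 of 160 cases. Many of these cases set 0 against 0, since no member passed in the main fit of any Nr1d1 comparison or of the Bmal1 interaction. Agreement between counts of 0 says little about stability. Leaving out 1 library each time gave 3 to 9 members at CT12 between genotypes in the Bmal1 experiment, against 5 with all libraries, and 0 to 6 between the times in livers labelled Bmal1 knockout, against 2. Median-of-ratios scaling gave 1 member for the Bmal1 interaction (Fads2), against 0, and its Bmal1 split of all genes at CT12 was 478 higher and 555 lower, against 739 and 368. That scaling also moved the share of calls that were higher between the times in controls to 54.8%, against 31.4%, and for the interaction to 57.5%, against 74.0%. In livers labelled Nr1d1 knockout it moved the median of all genes between the times by −0.15.

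The replicate block in the Bmal1 experiment gave 5, 1, 2, 7 and 0 members in the 5 comparisons, as without it. Dropping the block in the Nr1d1 experiment (no replicate block) left 0 members in each. All-gene counts moved by over 1.5 times without the filter at CT0 in the Bmal1 experiment (116, against 185). In the Nr1d1 experiment they were 5 at CT12, against 1 with a pseudocount of 1, 2 with scaling and 0 with no filter, summed transcripts or no block. They were 7 between the times in livers labelled Nr1d1 knockout, against 3 with a pseudocount of 0.1 or scaling, 1 with no filter and 0 with no block, and 45 in controls, against 8 with no filter and 0 with no block. At CT0 scaling gave 1, against 0. Leaving out 1 library gave 715 to 1240 genes at CT12 and 82 to 208 at CT0 between genotypes, 48 to 233 and 634 to 1372 between the times in livers labelled Bmal1 knockout and in controls, and 81 to 139 for the interaction. In the Nr1d1 experiment the ranges were 0 to 4 and 0 to 3 between genotypes, 1 to 15 and 11 to 65 between the times in livers labelled Nr1d1 knockout and in controls, and 0 to 4 for the interaction. The causes were not tested. The number of livers, 3 or 2 per group, limits what could pass, most of all in the Nr1d1 experiment, and Mogat1 and Cidec were under 1 RPKM in the Bmal1 experiment.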
